A study of Mus musculus with 15 samples.

Results

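The genes described here are the immunoglobulin and T cell receptor gene segments read in LSK cells, the fraction of mouse marrow that lacks lineage markers, carries Sca-1 and c-Kit, and includes the blood stem cells. GENCODE classes 702 mouse genes as such segments, of which 698 were in the count table. The 145 members are those with a summed raw count of at least 100 over all 15 libraries, out of 45232 genes in the table. They comprise 66 segments of the heavy-chain locus Igh, 58 of the kappa locus Igk, 6 of the lambda locus Igl, 4 of the T cell receptor alpha locus Tra, 8 of the beta locus Trb and 3 of the gamma locus Trg, while no delta (Trd) segment reached that count. By type, 118 were V segments, 7 were J segments, 18 were constant genes and 2 were V pseudogenes, and none of the 23 D segments entered. Since the summed count chose the members, a segment read only in WT cells entered through WT, so the counts of members that differed are a description and not a test of the set. Just outside the threshold lay Trbv3 with 92 counts and Ighv6-4 with 95. Just inside it lay Igkv8-18, all of whose 104 counts came from WT replicate B28, and Trbj1-2 with 106.

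An antibody or T cell receptor chain is encoded by a V, a J and in some loci a D segment that the RAG recombinase joins in each lymphocyte, and the joined exon is spliced to a constant gene. Because each B cell clone uses its own V segment and a plasma cell fills much of its RNA with the resulting transcripts, a few plasma cells of few clones can set the V counts of a bulk library. Constant genes are also transcribed before any joining takes place, and such germline transcripts of Ighm are known in early progenitors. At the Trg locus they are driven by the interleukin-7 receptor through JAK kinases and STAT5.

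The libraries came from CD45.2+ LSK cells of C57BL/6 mice, 3 in each of 5 groups. WT cells were wild type. The other 12 libraries came from recipients of cells carrying mutant Jak2 (V617F) and mutant Idh2 (R140Q), conditional alleles switched on by Mx1-Cre in a competitive transplant with CD45.1 WT marrow, so that the recipients also held normal blood cells. These mice received vehicle, AG221 (an inhibitor of mutant IDH2, 40 mg/kg per the labels), ruxolitinib (Rux, a JAK inhibitor, 60 mg/kg) or both drugs (combo) for 21 to 28 days, by gavage, with the last dose 1.5 h before the end. Whether the WT cells came from transplanted mice is not given in the sources used here, and the labels do not tie a library to a single mouse, so p-values measure the spread between these libraries only.

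Total counts per library ran from 18836625 to 32174287, and 3 counts, the limit that a count of 0 allows, corresponded to between 0.0957 and 0.157 CPM (counts scaled to a common library size). These limits cover counting error only, because amplified reads carry no molecular identifiers. The WT and the mutant libraries differed in sex-linked RNA (Xist 455 to 511 CPM against 0.365 to 19.5 CPM, Ddx3y at most 0.101 CPM against 124 to 206 CPM), so genotype and sex cannot be told apart in any comparison with WT. Replicate names begin with A in the vehicle, AG221 and Rux groups and with B in combo and WT, and what the letter stands for is not given, so the letter cannot be told apart from the group in comparisons across it. The LSK label was checked against both markers of the gate. Kit stood between 740 and 1550 CPM in every library and was lower than WT in AG221 (log2 -0.59, SE 0.173, adjusted p = 0.0134, edgeR, and 0.0599 without WT replicate B28). Ly6a, which encodes Sca-1, ran from 13.1 CPM in vehicle replicate A4 to 166 CPM in vehicle replicate A1.

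Of 10 genes of LSK and stem cells, 3 were lower than WT in vehicle, 7 in AG221, 3 in Rux and none in combo, and 1 was higher in vehicle. Of 7 erythroid genes, 3 were higher than WT in vehicle, 6 in AG221, 6 in Rux and none in combo, with summed levels of 251 to 385 CPM in WT and 587 to 3470 CPM in the mutants, highest in Rux replicate A16. Of 6 neutrophil genes, 1, 5, 2 and none were higher, with 75.1 to 125 CPM in WT and 430 to 657 CPM in AG221. Over all tested genes, the shares lower and higher than WT were 17.9% and 15.4% in vehicle and 28.5% and 22.2% in AG221. They were 16.2% and 16.1% in Rux and 1.61% and 1.63% in combo (edgeR, adjusted p under 0.05). Counts from the gene lists, here and further on, are to be read beside these shares. In combo the erythroid genes summed to 587, 1550 and 826 CPM, above WT, though none was called. The part of the listed genes in the results on segments was not tested.

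The V segments on which the following results turn are shown by their last 48 bases, the stretch that ends up beside the joint. Sequences are from GENCODE release M21 transcripts (GRCm38), 5′ to 3′ on the coding strand. Capitals mark the codons of the conserved tyrosine or phenylalanine and cysteine that precede the joint. Ighv11-2 and Igkv14-126 held like shares in all 3 WT libraries and were all but absent elsewhere. Igkv12-89 and Ighv6-3 were also read in all 3. Igkv17-121 and Ighv9-3 were read in all 3 as well, but with most of their counts in WT replicate B30. Ighv10-1 and Iglv1 dominated Rux replicate A16, and Trbv13-2 moved with treatment.
Ighv11-2 (chr12:114048241-114048812, minus strand): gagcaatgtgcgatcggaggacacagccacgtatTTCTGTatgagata
Igkv14-126 (chr6:67896172-67896642, plus strand): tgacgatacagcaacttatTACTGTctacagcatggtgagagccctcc
Igkv12-89 (chr6:68834846-68835307, minus strand): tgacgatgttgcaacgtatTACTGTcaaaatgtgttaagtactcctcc
Ighv6-3 (chr12:114391712-114392169, minus strand): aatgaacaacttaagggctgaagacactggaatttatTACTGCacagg
Igkv17-121 (chr6:68036812-68037318, plus strand): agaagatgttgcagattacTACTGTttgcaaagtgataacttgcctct
Ighv9-3 (chr12:114140692-114141122, minus strand): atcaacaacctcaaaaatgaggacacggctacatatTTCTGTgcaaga
Ighv10-1 (chr12:114479005-114479451, minus strand): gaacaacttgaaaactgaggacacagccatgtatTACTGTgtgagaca
Iglv1 (chr16:19085017-19085500, minus strand): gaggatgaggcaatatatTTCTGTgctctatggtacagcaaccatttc
Trbv13-2 (chr6:41121396-41121832, plus strand): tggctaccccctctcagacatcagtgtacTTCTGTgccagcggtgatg
V segments arose by duplication, and reads of close copies can be split or lost in counting. Of the 118 V members, 115 aligned over at least 80% of their length to another receptor segment, at a median identity of 95.4% (76.5% to 99.2%), and 62 reached 95%. Single V segments of that kind are uncertain. Among those shown, Iglv1 was 97% identical to Iglv2 and Ighv10-1 was 96.9% identical to Ighv10-3, whereas Trbv13-2 was 90.6% identical to its nearest copy. Ighv11-2 had no other segment aligned over that share of its length, but the shorter Ighv11-1, itself a member with at most 92 counts in any library, matched it at 98.9% over 353 bases.

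Immunoglobulin RNA was abundant in WT LSK libraries and scarce in all mutant ones. Fewer cells of a type and less RNA per cell cannot be told apart in such bulk samples. Antibody segments took 0.951%, 2.39% and 0.677% of all counts in WT replicates B28, B30 and B31, and between 0.0115% and 0.105% in the 12 mutant libraries. The Igh locus summed to 5390, 11800 and 3480 CPM in WT and to between 90.5 and 773 CPM in the mutant libraries. For Igk the WT libraries stood at 2500, 8630 and 2360 CPM, and the mutant libraries between 5.95 and 282 CPM. The Igh mean was 6890 ± 4370 CPM in WT (SD, n = 3) and 180 ± 82.1 CPM in vehicle. It was 38.4 times as high in WT as in vehicle, 20.2 times as high as in AG221, 13.3 times as high as in Rux and 17.4 times as high as in combo. For Igk these ratios were 126, 35.2, 42.6 and 30.3. Neither locus overlapped between WT and any mutant group. Igl did overlap, since Rux replicate A16 reached 302 CPM, between the WT values of 105 and 499 CPM.

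Most genes that mark antibody-secreting cells were also lower than WT in the vehicle, AG221 and Rux libraries. Of 12 plasma cell genes, all tested, 9 were lower than WT in vehicle, 10 in AG221, 9 in Rux and 6 in combo, and 1 was higher in each of the first 3. Their summed level was 783 to 1640 CPM in WT and 103 to 498 CPM in the mutant libraries, and no gene of the list was at 0 in any group. Jchain, which links IgM and IgA units, stood at 476, 935 and 422 CPM in WT and at 0.835 to 66.6 CPM in the mutants, lowest in combo replicate B24. Sdc1, the plasma cell surface proteoglycan, stood at 27.8 to 57.4 CPM against 0.727 to 7.41 CPM. In combo, Jchain missed the threshold against WT (log2 -4.36, SE 1.21, adjusted p = 0.0621, edgeR) and Txndc5, a disulfide isomerase, stood at 160 ± 44.4 CPM beside 168 ± 67.8 CPM in WT (SD, n = 3). The gene that was higher was Fkbp11, a prolyl isomerase, by 0.85 to 1.53 on the log2 scale. The part of these genes in the segment counts was not tested.

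T cell receptor loci differed far less. Trb summed to between 11.2 and 13.5 CPM in WT, and its values lay between 5.32 and 15.3 CPM in all mutant libraries except combo replicate B24, at 43.9 CPM. The Rux libraries, at 6.94 to 7.43 CPM, lay below every WT, vehicle (11.6 to 14.7 CPM) and AG221 (12.2 to 15.3 CPM) library. Tra lay between 2.54 and 10.6 CPM over all 15 libraries. Trg separated the groups in another way, with 12.9 to 28.6 CPM in vehicle and 15.5 to 29.9 CPM in AG221 against 5.04 to 7.38 CPM in WT, 1.75 to 3.72 CPM in Rux and 3.05 to 6.57 CPM in combo. Trd did not exceed 1.28 CPM in any library.

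**Figure D1:**
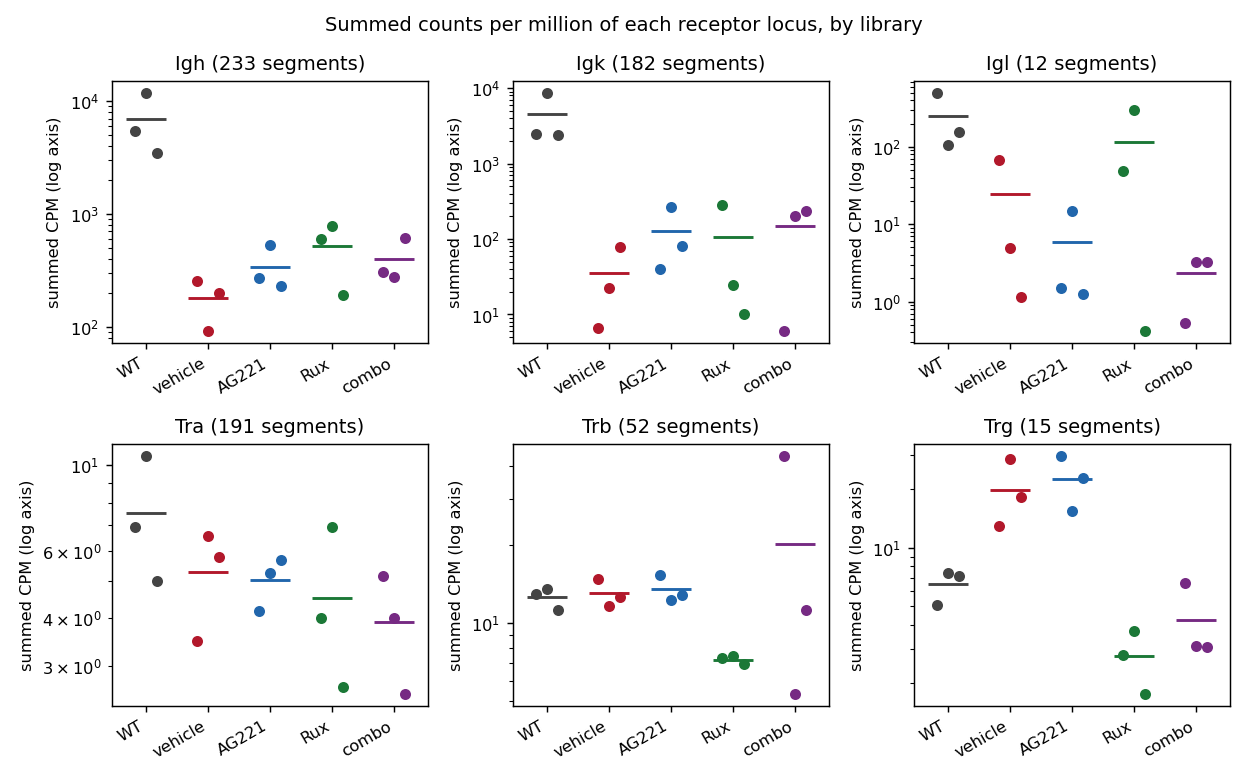
Summed CPM of all segments of each locus (log axis), with 1 point per library and a line at the mean of the 3 libraries of a group. Igh and Igk were highest in all 3 WT libraries, while Trg was highest in the vehicle and AG221 libraries.

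Each tested gene was compared between groups in 1 fit over all genes. Of the 145 members, 93 passed the filter on low counts and 52 did not. In vehicle against WT, 58 tested members were lower and 3 were higher at an adjusted p under 0.05 (edgeR), where 17.9% and 15.4% of the 17834 tested genes were called lower and higher. In AG221 against WT, 55 were lower and 4 higher, beside 28.5% and 22.2% of all tested genes. In Rux against WT, 48 were lower and 1 was higher, beside 16.2% and 16.1%. In combo against WT, 31 were lower and 1 was higher, beside 1.61% and 1.63%. The median log2 fold change of the tested members was -5.77, -4.42, -4.43 and -5.65 in the 4 comparisons, against -0.09, -0.25, -0.14 and 0.04 over all tested genes. With the 10, 10, 6 and 18 members that had no count in 1 of the groups set to the limit of 3 counts per library, the medians were -5.29, -4.21, -4.43 and -4.87. In combo against WT, 20 members were called without combo replicate B24, 9 without B25 and 19 without B26, while DESeq2 called 53. All 4 comparisons share the WT libraries.

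**Figure D2:**
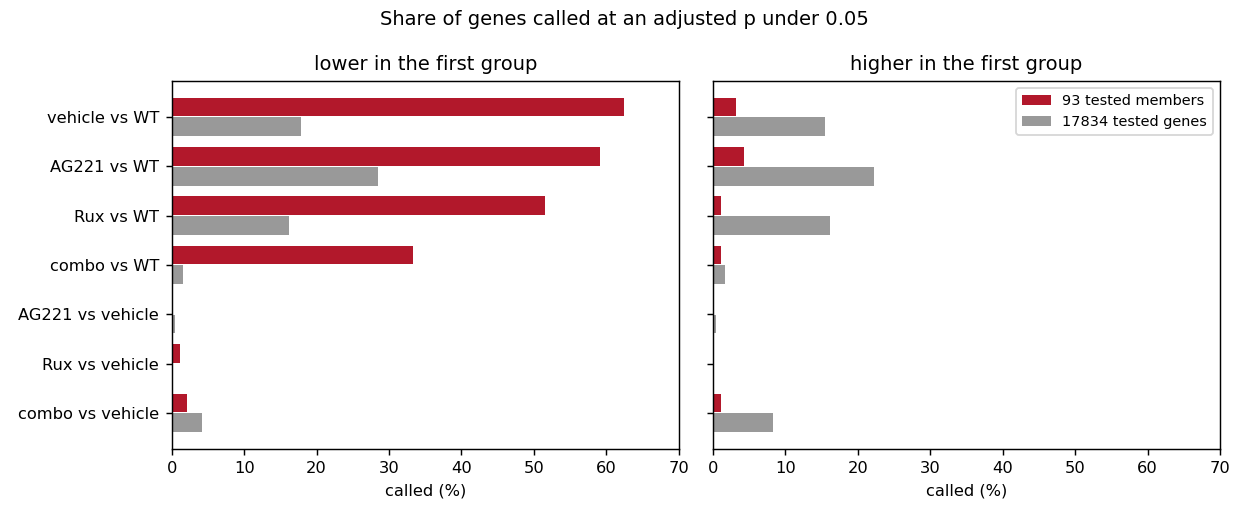
Percentage of tested genes called lower (left) or higher (right) in the first group of each comparison (edgeR, adjusted p under 0.05), for the 93 tested members (red) and all 17834 tested genes (grey). Members were called lower than WT more often than all genes in each mutant group, and few were called between treatments and vehicle. The excess below WT is a description, because summed counts chose the members and 108 of the 145 were highest in a WT library.

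Among the constant genes, Ighm, which encodes the heavy chain of IgM (chr12:113418558-113422730), was the most counted member in every library. Its counts were 127508, 290025 and 87625 in WT, 4473, 1808 and 3866 in vehicle, 4818, 5186 and 5227 in AG221, 6855, 15754 and 4728 in Rux, and 5329, 4424 and 11476 in combo. Every mutant library lay below every WT library. The log2 fold change against WT was -5.52 (SE 0.682, adjusted p = 0.000328) in vehicle, -4.76 (SE 0.657, adjusted p = 0.000262) in AG221, -3.89 (SE 0.631, adjusted p = 0.00199) in Rux and -4.17 (SE 0.639, adjusted p = 0.0053) in combo by edgeR.

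Igkc, the only kappa constant gene (chr6:70726435-70726966), was read 47950, 176018 and 49077 times in WT. Mutant libraries held 29 to 4178 counts of it, the lowest in combo replicate B24 and the highest in combo replicate B25. It was lower than in WT with vehicle (log2 -7.00, SE 1.74, adjusted p = 0.0117), AG221 (log2 -5.10, SE 1.59, adjusted p = 0.0177) and Rux (log2 -5.41, SE 1.62, adjusted p = 0.024), whereas combo missed the threshold (log2 -4.87, SE 1.57, adjusted p = 0.0892) in the edgeR fit. The AG221 call (edgeR) was lost without AG221 replicate A8 (adjusted p = 0.0641) or A10 (0.0614) or WT replicate B30 (0.0543), and the Rux call without Rux replicate A16 (0.0772) or A17 (0.0683) or WT replicate B30 (0.08). Of the 17 tested constant genes, 8 were lower than WT in vehicle, 7 in AG221, 6 in Rux and 4 in combo, or 47.1%, 41.2%, 35.3% and 23.5%, beside 17.9%, 28.5%, 16.2% and 1.61% of all tested genes. Ighm, the IgG3 gene Ighg3 and the lambda gene Iglc2 were among them each time, though Ighg3 reached 10 counts in WT libraries only.

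The WT libraries shared a core of V segments. Of 112 immunoglobulin V members, 44 had at least 10 counts in all 3 WT libraries, 31 in exactly 2, 31 in exactly 1 and 6 in none. In the mutant libraries 50 of the 112 reached 10 counts nowhere, 39 did so in 1 of the 12 libraries, 14 in 2 and 9 in 3 or more. A cut of 10 counts is harder to reach there, with 113 to 1903 Igh V counts per mutant library against 10082 to 33809 in WT. Of the 145 members, 108 were also highest in a WT library, so the contrast partly follows from how members were chosen. Ighv11-2 was counted 1269, 3324 and 764 times in WT, and its only other count was a single one in vehicle replicate A1. Igkv14-126 was counted 3379, 9329 and 2558 times in WT and at most once in any mutant library. The heavy and light segments of this pair are known from the anti-phosphatidylcholine antibodies of B-1 cells, the innate-like B cells that arise early in life. Both were called lower in all 4 mutant groups, Igkv14-126 at adjusted p = 3.9e-06, 4.15e-06, 7.02e-06 and 1.1e-05 and Ighv11-2 at 0.00058, 0.000218, 0.0007 and 0.00195 for vehicle, AG221, Rux and combo (edgeR). Both became members and passed the count filter through WT alone. Their p-values therefore describe the gap and are not an independent test of it.

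The share of the pair varied less between WT libraries than that of most V segments, though by more than counting error. Ighv11-2 made up 9.74%, 9.83% and 7.58% of all Igh V counts in WT replicates B28, B30 and B31 (Wilson 95% intervals 9.24% to 10.3%, 9.52% to 10.2% and 7.08% to 8.11%). Igkv14-126 made up 16.1%, 11.7% and 12.1% of the Igk V counts (15.6% to 16.6%, 11.5% to 11.9% and 11.6% to 12.5%). Of 41 Igh and Igk V members with 10 counts in every WT library, the highest share was a median of 7.26 times the lowest, with a range of 1.27 to 274. For Ighv11-2 this ratio was 1.3 and for Igkv14-126 it was 1.38. Only 9 of the 41 held at least 1% in all 3 libraries, and within those 9 the pair had the smallest ratios. Igkv12-89 (12.1%, 5.18% and 3.4%) and Ighv6-3 (2.54%, 6.24% and 14.5%) belonged to the 9 but varied more.

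Ighv6-3 was unlike the pair in that all mutant libraries retained a few reads. WT libraries held 331, 2108 and 1464 counts of it, and the mutant libraries 2 to 18. Against WT its log2 fold change was -6.83 (SE 0.706, adjusted p = 7.86e-05) in vehicle, -6.97 (SE 0.717, adjusted p = 4.95e-05) in AG221, -8.11 (SE 0.778, adjusted p = 5.35e-05) in Rux and -6.88 (SE 0.716, adjusted p = 0.000218) in combo (edgeR). Also shared by WT, Igkv15-103 had 632, 913 and 318 counts in WT and at most 3 in any other library, and Igkv6-15 had 252, 416 and 344 against at most 11.

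Other V segments, several of them also read at 10 or more counts in all 3 WT libraries, were far higher in 1 WT library than in the others. Igkv17-121 had 24683 counts in WT replicate B30 against 181 and 257 in B28 and B31, and made up between 30.6% and 31.3% of the Igk V counts there (Wilson 95% interval). Ighv9-3 had 9900 counts in B30 against 425 and 252, and Igkv4-91 19596 against 139 and 172. The IgG1 gene Ighg1 followed the same library, with 19858 counts in B30 and 28 and 72 in the others. WT replicate B28 instead held 4451 counts of Ighv5-16, 34.2% of its Igh V counts, where B30 had 200 and B31 none. Over all members, 95 had more than 50% of their counts in 1 library, which was a WT library for 77, and 30 had more than 90%. WT replicate B30 alone was the highest library for 50 of the 145 members.

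**Figure D3:**
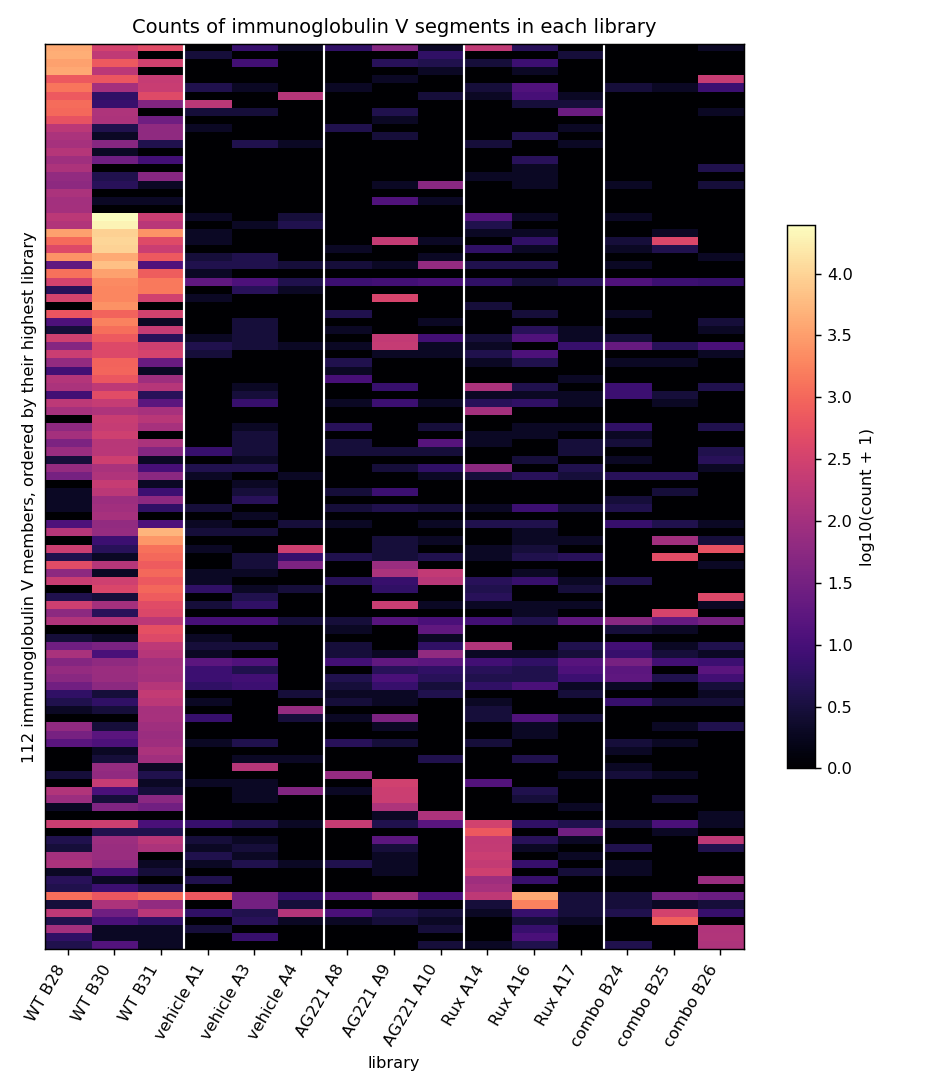
Raw counts of the 112 immunoglobulin V members (rows, grouped by the library in which each was highest) in the 15 libraries (columns), as log10(count + 1). The 3 WT columns are filled over most rows, whereas mutant columns are mostly dark, with bright segments in single libraries.

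Most mutant libraries had a leading V segment that led in no other mutant library, but not all. Igkv8-30 led Igk in vehicle replicate A4 (282 counts) and combo replicate B26 (592 counts), Igkv12-41 in Rux replicates A14 (681 counts) and A17 (28 counts), and Ighv1-77 led Igh in Rux replicate A17 (19 counts) and combo replicate B24 (53 counts). In Rux replicate A16, Ighv10-1 had 1805 of 1903 Igh V counts, or 94.9% (93.8% to 95.8%), together with 4002 counts of the lambda segment Iglv1 and 2714 of the lambda constant gene Iglc3. Ighv10-1 had at most 31 counts in any other mutant library. Vehicle replicate A1 held 183 counts of Ighv1-53, 63.3% of its Igh V counts, and no other mutant library had more than 2.

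AG221 replicate A8 had 233 counts of Igkv14-111, 83.2% of its Igk V counts (78.4% to 87.1%), next to 68 of Ighv14-2. Combo replicate B25 had 833 counts of Igkv4-68, 390 of Ighv1-55 and 322 of Ighv6-6. The number of Igh V segments with 10 or more counts was 39 to 48 per WT library and 2 to 10 per mutant library, and that of Igk V segments 36 to 46 and 0 to 8. These numbers also fall with the smaller V counts of the mutant libraries, which were 113 to 1903 for Igh against 10082 to 33809 in WT.

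Heavy constant counts were split by antibody class in each library, though they can include transcripts made before any joining, such as those of Ighm. After class switching, a B cell replaces Ighm by an IgG, IgA or IgE gene. Switched genes took 5.44%, 8.2% and 5.94% of heavy constant counts in WT and 0.315% to 47.5% in the mutant libraries. The IgA gene Igha accounted for 26.9%, 24.1% and 15.4% in the 3 vehicle libraries, whereas WT libraries lay between 0.51% and 3.08% and AG221 libraries between 0.149% and 0.447%. In counts, Igha stood at 1687, 624 and 715 in vehicle and at 27, 15 and 26 in AG221. It was lower than WT with AG221 only (log2 -6.71, SE 1.89, adjusted p = 0.0108, edgeR). AG221 against vehicle missed the threshold for Igha (log2 -5.30, SE 1.79, adjusted p = 0.106, edgeR), and AG221 was not tested against Rux or combo. Rux replicate A14 (2966 counts) and combo replicate B25 (2578 counts) held IgA RNA as well, while the other Rux libraries had 201 and 33 counts and the other combo libraries 706 and 2.

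IgG genes appeared in single mutant libraries. Ighg1 had 1106 and 2083 counts in AG221 replicates A8 and A9 and 1443 in Rux replicate A14, and at most 5 in each of the other mutant libraries. Ighg2b had 2641 counts in AG221 replicate A9 and 92 or fewer elsewhere among the mutants. Ighg2c had 634 in AG221 replicate A10 and at most 29 in the rest. Each AG221 library thus carried a different IgG makeup, with 20.7% Ighg1 and 26.3% Ighg2b in A9, 18.3% Ighg1 in A8 and 10.7% Ighg2c in A10.

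The lambda share of light-chain constant counts separated single libraries rather than groups. It was 90.7% in vehicle replicate A1 (88.9% to 92.2%) and 88.5% in Rux replicate A16 (87.4% to 89.5%), and between 1.2% and 19.4% in 9 of the other 10 mutant libraries. Vehicle replicate A3 had 113 lambda and 452 kappa counts. WT libraries had 15.1%, 1.16% and 5.65%. The high share came from Iglc1 in A1 (1102 counts) and from Iglc3 in A16, whose exons are overlapped over 20.6% by a gene on the opposite strand (2010309G21Rik).

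**Figure D4:**
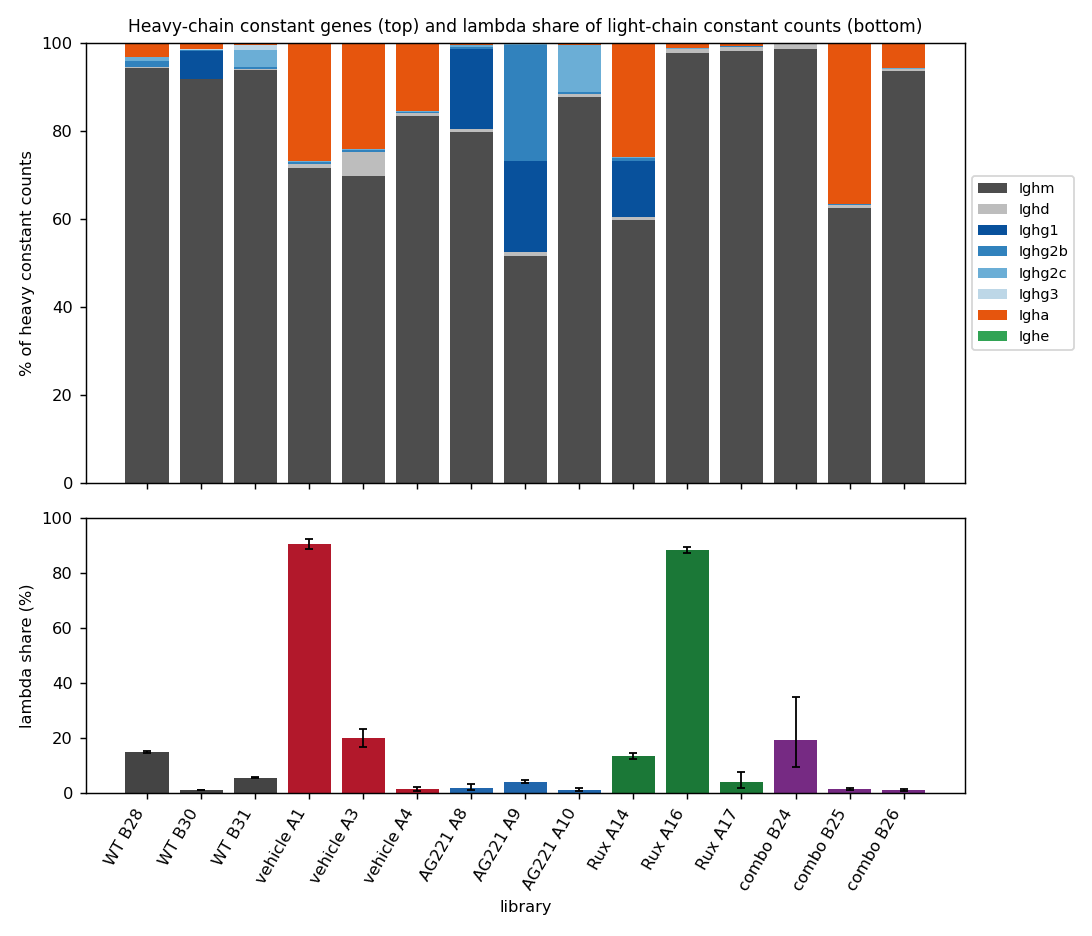
Share of each heavy-chain constant gene in the heavy constant counts (top, stacked, %) and share of lambda in the light-chain constant counts with Wilson 95% intervals (bottom, %), for each library. Igha made up 15.4% to 26.9% in the vehicle libraries, 25.9% in Rux A14 and 36.5% in combo B25. Lambda exceeded 80% only in vehicle A1 and Rux A16.

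In most mutant libraries Ighm stood higher beside the light chains than in WT, and most of all in Rux replicate A17 and combo replicate B24. For every 100 counts of Igkc there were 43.2 to 45.3 Igk V counts in WT and 37.2 to 53.1 in 11 of the 12 mutant libraries, with 207 in combo replicate B24, where Igkc had 29 counts. For every 100 heavy constant counts, Igh V counts numbered 9.65 to 10.8 in WT, and 2.35 to 12.5 in the mutants. Per kilobase of exon, Ighm reached 0.46 to 0.646 times the summed light-chain constant genes in WT and 0.784 to 0.89 times in vehicle. It reached 6.65 times in Rux replicate A17 and 41.4 times in combo replicate B24. Only AG221 replicate A9 (0.354), Rux replicate A14 (0.403) and combo replicate B25 (0.295) lay below the WT range, and the other mutant libraries lay above it. Replicates A17 and B24 held 5355 and 5963 immunoglobulin counts in all. Dntt, the terminal transferase of early lymphoid progenitors, stood at 421 CPM in B24 and 106 CPM in A17, beside 318 to 406 CPM in WT. Over the other mutant libraries it ran from 15.9 CPM in vehicle replicate A4 to 323 CPM in combo replicate B26. Its relation to the Ighm ratio was not tested.

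The heavy-chain J segments lie just upstream of Ighm. Ighj1 reached 10 counts in all 15 libraries, with 90, 138 and 97 in WT and 12 to 75 in the mutants, and its differences from WT missed the threshold in every comparison. Ighj2 and Ighj4 were lower than WT in vehicle (adjusted p = 0.0266 and 0.0141, edgeR), with 31 and 21 counts over the 3 vehicle libraries against 166 and 182 over WT. In AG221 against WT, Ighj2 (adjusted p = 0.00808), Ighj4 (0.00847) and Ighj3 (0.0403) were lower by edgeR. The 7 tested J members were 4 of Igh and 3 of Trb. None was called in Rux or combo against WT. In each, 2 of the 7 had an unadjusted p under 0.05 (edgeR), beside 8144 (Rux) and 4529 (combo) of the 17834 tested genes. The called J members were 28.6% of the 7 in vehicle and 42.9% in AG221, beside 17.9% and 28.5% of all tested genes. In vehicle the call of Ighj2 was lost without vehicle replicate A3 (edgeR adjusted p = 0.0683) or A4 (0.073) or WT replicate B30 (0.137), and that of Ighj4 without vehicle replicate A4 (0.051) or WT replicate B30 (0.0635). In AG221 the call of Ighj3 was lost without AG221 replicate A8, A9 or A10 or WT replicate B28 or B30 (edgeR adjusted p between 0.0555 and 0.115).

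Between treatments and vehicle, few members changed. No member was called in AG221 against vehicle by edgeR, where 0.516% and 0.471% of all tested genes were lower and higher. At an unadjusted p under 0.05 there were 19 of the 93 members and 4498 of the 17834 genes, DESeq2 called 11, and edgeR without AG221 replicate A9 called 4. Rux against vehicle gave 1 member lower and none higher, beside 0.0168% and 0.0%. Unadjusted, 19 of the 93 members and 813 of the 17834 genes had a p under 0.05. That call was absent without Rux replicate A14, A16 or A17 or vehicle replicate A3. Combo against vehicle gave 2 lower and 1 higher, beside 4.21% and 8.28%, and 1 call without vehicle replicate A3. These 3 comparisons share the vehicle libraries.

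The member called in Rux against vehicle was Tcrg-C1, the constant gene of the first Trg cassette (chr13:19214103-19217024). It was read 295, 874 and 454 times in vehicle, 657, 307 and 604 times in AG221, 47, 68 and 32 times in Rux, 31, 83 and 34 times in combo, and 66, 103 and 93 times in WT. All vehicle and AG221 libraries held at least 295 counts, and every Rux, combo and WT library lay at or below 103. In CPM the means were 19.0 ± 8.45 (SD, n = 3) in vehicle, 21.5 ± 6.85 in AG221, 2.1 ± 0.861 in Rux, 2.02 ± 0.735 in combo and 2.99 ± 0.549 in WT.

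By edgeR, Tcrg-C1 was higher than WT in vehicle (log2 2.66, SE 0.411, adjusted p = 0.00145) and in AG221 (log2 2.84, SE 0.413, adjusted p = 0.000335). It was lower than vehicle in Rux (log2 -3.17, SE 0.424, adjusted p = 0.0263) and in combo (log2 -3.22, SE 0.425, adjusted p = 0.000971) by edgeR. Against WT, Rux (log2 -0.51, SE 0.404, edgeR adjusted p = 0.333) and combo (log2 -0.56, SE 0.405, adjusted p = 0.407) missed the threshold, as did AG221 against vehicle (log2 0.18, SE 0.382, adjusted p = 0.797). The comparison of Rux with vehicle lies within letter A and within 1 pattern of sex-linked RNA. There the log2 change was between -3.48 and -2.79 when any library was left out, but the adjusted p of edgeR rose to 0.202 without Rux replicate A14, 0.0835 without A16, 0.172 without A17, 0.0512 without vehicle replicate A3, and 1.0 when only both groups were fitted.

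The other gamma constant genes did not follow. The first 60 bases of the 3 members, with capitals where a base differs from Tcrg-C1, show how close the copies are.
Tcrg-C1 (chr13:19214103-19217024, plus strand): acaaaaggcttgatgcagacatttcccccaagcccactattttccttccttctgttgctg
Tcrg-C2 (chr13:19304649-19307551, minus strand): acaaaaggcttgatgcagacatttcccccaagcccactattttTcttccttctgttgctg
Tcrg-C4 (chr13:19344558-19352756, plus strand): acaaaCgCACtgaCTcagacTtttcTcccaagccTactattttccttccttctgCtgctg
Over this stretch Tcrg-C2 differed at 1 base and Tcrg-C4 at 10, and over the aligned length Tcrg-C2 was 94.4% identical to Tcrg-C1, so some reads may not have been assigned to either. Tcrg-C2 had 23, 22 and 53 counts in WT, 36 in combo replicate B24 and 1 to 9 in the other mutant libraries. Tcrg-C4 had 39, 62 and 58 in WT and 0 to 49 in the mutants. Neither passed the threshold in any of the 7 comparisons. V segments of the Trg locus summed to at most 0.809 CPM in any library. Il7r, the interleukin-7 receptor gene, stood at 8.64 to 10.5 CPM in WT, 0.0789 to 4.21 CPM in vehicle, 1.11 to 2.22 CPM in AG221, 1.23 to 1.71 CPM in Rux and 15.0, 0.484 and 6.2 CPM in combo, without separating vehicle from Rux. Cd3e, part of every T cell receptor complex, stood at 0 to 1.24 CPM over all libraries and missed the threshold in Rux against vehicle (log2 0.71, SE 1.05, adjusted p = 1.0, edgeR).

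Trbv13-2, a beta-chain V segment, had a similar order of groups on a smaller scale. Its counts were 55, 39 and 40 in WT, 148, 222 and 221 in vehicle, 172, 101 and 189 in AG221, 67, 70 and 70 in Rux, and 77, 84 and 90 in combo. No mutant library fell to the WT range, and the Rux and combo libraries lay below all vehicle libraries. Against WT it was higher in vehicle (log2 2.20, SE 0.275, adjusted p = 0.00036), AG221 (log2 2.03, SE 0.274, adjusted p = 0.000234), Rux (log2 0.91, SE 0.271, adjusted p = 0.0235) and combo (log2 1.25, SE 0.271, adjusted p = 0.0297) by edgeR. Against vehicle it was lower in combo (log2 -0.95, SE 0.263, adjusted p = 0.0311), while Rux missed the threshold (log2 -1.29, SE 0.266, adjusted p = 0.23, edgeR). The call in Rux against WT was lost without Rux replicate A14 or A16 or WT replicate B30 or B31 (edgeR adjusted p between 0.0551 and 0.0989). That in combo against WT was lost without combo replicate B24, B25 or B26 or WT replicate B30 or B31 (0.0579 to 0.115). That in combo against vehicle was lost without combo replicate B24 or B25 or vehicle replicate A3 or A4 (0.0677 to 0.128).

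Its neighbour Trbv12-2, the segment (chr6:41118851-41119364) upstream of Trbv13-2 on the same strand, was also higher than WT in vehicle (log2 1.77, SE 0.363, adjusted p = 0.00588) and AG221 (log2 1.70, SE 0.364, adjusted p = 0.00261) by edgeR. It was read 19 times in each WT library, 71, 53 and 60 times in vehicle, 60, 39 and 56 times in AG221, 14, 29 and 45 times in Rux and 39, 30 and 30 times in combo. The beta constant genes did not move with these V segments. Trbc1 had 72, 71 and 89 counts in WT, 71, 20 and 1 in vehicle, and 50, 48 and 27 in AG221, and was called in no comparison.

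**Figure D5:**
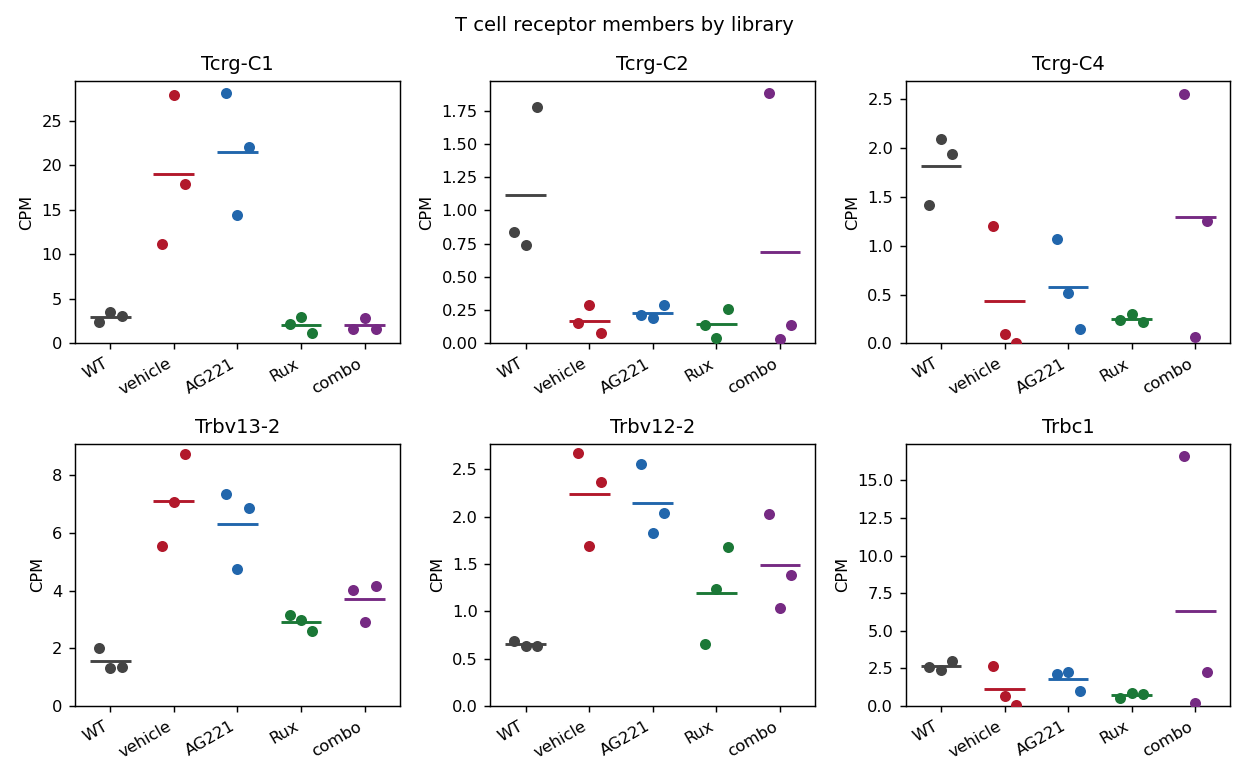
CPM of 6 T cell receptor members (linear axes from 0), with 1 point per library and a line at the group mean. Tcrg-C1 and Trbv13-2 were highest in the vehicle and AG221 libraries, whereas Trbc1 was highest in 1 combo library, at 16.6 CPM.

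Combo replicate B24 stood apart in Trb. It held 318 counts of Trbc1, against 5 and 49 in the other combo libraries, 49 of Trbc2, and 88, 37 and 47 of the J segments Trbj1-1, Trbj1-2 and Trbj1-3, which had 0 to 14 counts in the other mutant libraries. The same library had the most RNA of Bcl11b, a transcription factor of T cell commitment, with 8.24 CPM against 0.0 to 2.16 CPM in all others. Cd3e stood at 0.209 CPM there, within the range of the other libraries. No Trb constant or J member was called in combo against WT or vehicle.

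The remaining member called in combo against vehicle was Ighv1-77, higher in combo (log2 2.77, SE 0.71, adjusted p = 0.0216, edgeR). It had 53, 20 and 33 counts in combo, 9, 9 and 2 in vehicle and 134, 139 and 180 in WT. The call was lost without combo replicate B24 (edgeR adjusted p = 0.106) and without vehicle replicate A1 (0.058), A3 (0.0567) or A4 (0.0735). The pseudogene Ighv1-41 was the only Igh member above WT, in AG221, with 29, 16 and 14 counts against 8, 1 and 8 (log2 2.05, SE 0.697, adjusted p = 0.026, edgeR), and that call was lost without AG221 replicate A8 (0.11) or WT replicate B30 (0.0812).

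Of 10 mature B cell genes, all tested, 2 were lower than WT in vehicle (Cd79a and Blk), 5 in AG221, 1 in Rux and 1 in combo, with summed levels of 228 to 259 CPM in WT and 161 to 246 CPM in the mutants. T cell genes summed to 87.9 to 99 CPM in WT and 38 to 136 CPM in the mutants, and of 12 tested 1 was lower than WT in vehicle, 5 in AG221, 1 in Rux and none in combo, with none higher. Of 9 tested genes of pro- and pre-B cells, the stages at which antibody genes are joined, 7 were lower than WT in vehicle. There were 5 in AG221, 3 in Rux and 1 in combo. The list summed to 361 to 445 CPM in WT, 20.7 to 211 CPM in vehicle and 121 to 137 CPM in AG221. In Rux it summed to 56.7 to 118 CPM and in combo to 29.5 to 467 CPM. Most of each sum was Dntt, at 318 to 406 CPM in WT. Dntt missed the threshold against WT in every mutant group (edgeR adjusted p from 0.0616 to 0.741), so the sums mainly describe that gene.

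Of 15 genes of V(D)J recombination, 2 were lower than WT in vehicle and 3 higher. There were 1 and 5 in AG221, 1 and 3 in Rux, and none in combo. The shares of all tested genes called lower and higher were 17.9% and 15.4% in vehicle and 28.5% and 22.2% in AG221. In Rux they were 16.2% and 16.1%, and in combo 1.61% and 1.63%. Of the 15, the lower ones in vehicle were Rag1 (log2 -4.24, adjusted p = 0.0118) and Rag2 (log2 -2.13, adjusted p = 0.0332), the lymphoid-specific recombinase (edgeR). The higher ones were the general repair and chromatin genes Prkdc, Hmgb1 and Hmgb2 (edgeR). The Rag1 call was lost without WT replicate B30 (edgeR adjusted p = 0.0501), and that of Rag2 without vehicle replicate A3 (0.0914) or A4 (0.104) or WT replicate B28 (0.0626), B30 (0.093) or B31 (0.0502). Of 13 tested B cell receptor partners, 6 were lower and 1 higher in vehicle, 7 and 1 in AG221, 3 and 1 in Rux, and 2 and none in combo. Among 9 tested T cell receptor partners, 2 were lower in vehicle (Cd247 and Fyn), 3 in AG221, 2 in Rux and none in combo, with 1 higher in AG221. Fyn, a Src family kinase, was higher in combo than in vehicle (log2 2.36, SE 0.438, adjusted p = 0.00458, edgeR). Of 7 tested class switch and hypermutation genes, none was called in vehicle or combo against WT, 3 were lower and 2 higher in AG221, and 1 was higher in Rux.

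Of 12 genes of antibody secretion, all tested, 2 were lower than WT in vehicle (Jchain and Mzb1) and 7 were higher, with 3 and 6 in AG221 and 2 and 6 in Rux. The higher ones were general chaperone and translocation genes of the endoplasmic reticulum, which every cell uses, such as Hspa5, at 2600 to 3520 CPM in vehicle against 630 to 721 CPM in WT. In combo 1 of the 12 was lower than WT and none was higher, and Hspa5 stood at 665 to 952 CPM.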

How the data were processed

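RNA was measured in 15 libraries of sorted LSK cells, 3 per group. The authors aligned paired-end reads to mm10 (GRCm38) with STAR 2.5.1a and deposited raw read counts per Ensembl gene. STAR's gene counting keeps reads that map to 1 place only, which removes reads of near-identical V segments. The strand setting and Ensembl release are not given in the sources used here. A deposited table scaled with DESeq2 1.6.3 was not used. No column lacked a sample.

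Gene types and positions were taken from GENCODE release M21, and 1 member without a locus in its name was placed by position. Library totals ran from 18836625 to 32174287 counts. CPM used TMM factors. Genes passing filterByExpr were tested with the edgeR 4.0.16 quasi-likelihood test in R 4.3.3, in 1 fit over all 15 libraries and 5 groups, with Benjamini-Hochberg adjustment over 17834 genes at 0.05, two-sided. Fold changes were checked on simulated counts, with moderate changes set in well-counted genes of Rux against vehicle. The large changes against WT of members with few mutant counts were not covered by that check. Shares carry Wilson 95% intervals. Segment identity was computed with blastn 2.17.0+, for alignments over at least 80% of a segment. Replicate libraries of a group differed by 15.0 to 174 times the sampling noise (chi-square per degree of freedom), so none was a copy of another.

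The members and gene lists were chosen with earlier results of these data known. The genes named were all constant members, the most counted V, D or J members per locus, the called non-overlapping members with the smallest p, members next to the threshold, members held by 1 library and the genes of the fixed lists. Ighv6-3's neighbours in the WT core, Igkv15-103 and Igkv6-15, and the V segments leading single mutant libraries were named after their values were seen. Alternatives were DESeq2 1.42.0, other scaling factors, no filter, fits of only the groups compared, other member thresholds and leaving out each library. A search for recombination signals beside the V exons was planned and not run.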

Additional observations from a re-analysis of the deposited data

How the results depend on the processing

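Of 512 values of 43 fold changes under the alternatives, none changed direction, 456 kept their side of the threshold, 55 lost it and 1 gained it (Igkc in combo against WT with every gene that had at least 1 count, adjusted p = 0.0203, edgeR). With every gene that had at least 1 count tested, where more members enter, 109 members were called in vehicle, 105 in AG221, 96 in Rux and 80 in combo against WT, and 7, 2 and 11 in AG221, Rux and combo against vehicle. DESeq2 called 53 in combo against WT and 11, 3 and 11 in AG221, Rux and combo against vehicle. Upper quartile factors gave 2 in AG221 against vehicle, and fitting only the groups compared gave 0 in Rux against vehicle. Leaving out single libraries gave 49 to 64 calls in vehicle, 53 to 76 in AG221, 41 to 61 in Rux and 9 to 33 in combo against WT, and 0 to 4, 0 to 1 and 1 to 4 in AG221, Rux and combo against vehicle. Upper quartile factors moved the median of all genes from 0.04 to -0.16 (log2) in combo against WT, from -0.01 to 0.18 in AG221 against vehicle and from 0.04 to -0.08 in combo against vehicle. The cause of these differences was not tested beyond the change in the genes entered.

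Summed over members only, Tra fell to 2.28 CPM in WT, 3.22 in vehicle, 2.74 in AG221 and 2.2 in combo, and Trb to 8.1 in WT and 6.17 in Rux, since fewer genes were summed. With plain library totals Trb was 14.3 in WT and 6.94 in Rux. The other 92 of 100 locus sums moved by less than 1 SD. No paired analysis was possible because the groups share no replicate numbers. Counts of V segments in mutant libraries are small, so differences between treatments are hard to detect for segments under 10 counts there.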
